A study of Mus musculus with 2 samples.

Results

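Integrin and laminin chain genes were examined in UGM cells, cultured mouse mesenchyme of the urogenital sinus, whose epithelium gives rise to the prostate. Every gene whose annotated symbol began with Itga, Itgb, or Lama, Lamb or Lamc and a digit was taken, where a probe set named that gene alone. This gave 39 of the 18193 genes named on the array. Of the 39, 24 were integrin chains (16 alpha and 8 beta), 10 were laminin chains, and 5 carried such a symbol without being a chain (Itgb1bp1, Itgb1bp2, Itgb3bp, Itgb2l and Itgbl1). Itga11 and Itgad are not analysed here.

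The treated culture, T+E2, received testosterone (12 nM) and estradiol-17β (120 pM) for 72 h in RPMI medium with 5% dextran charcoal-stripped serum, from which steroids have largely been removed. The untreated culture was kept for the same time in that medium without the hormones. Both came from male C57BL/6 mice at day 16, both media held 5 µg/ml Plasmocin, an antibiotic, and each was hybridised to 1 Affymetrix mouse expression array. Sample titles give 24 h and all other labels 72 h, and the labels differ on whether cells were confluent before treatment. Each group has 1 array, so nothing can be set against a spread between replicates, no test is possible, and hormone treatment, culture, density and array cannot be told apart.

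Integrins are cell surface receptors made of 1 alpha and 1 beta chain, and the pair fixes which matrix protein is bound. Laminins are secreted trimers of an alpha, a beta and a gamma chain, and they form the sheet of the basement membrane to which epithelium and muscle attach. In the urogenital sinus such a membrane lies between the epithelium and the mesenchyme, and integrins on both sides bind it.

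Values are log2 of the deposited GCRMA intensity. A gene counted as measured when at least 1 array reached a floor of 5 (intensity 32), and values under 5 were set to 5 before a difference, T+E2 minus untreated, was formed. Against the floor a fold is a lower bound. Where a gene had several probe sets, the one with the highest mean log2 stands for it, and levels of different genes are not compared, since probe sets differ in response. Of the 34 chains 18 were measured, 17 of them on both arrays. In a culture read as a whole, fewer cells of a type and less RNA per cell cannot be told apart.

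Across the 18 measured chains, 17 lay above 0 and 1 below, while of the 10267 measured genes 55.8% lay above 0 and 43.7% below. A 2-fold or larger difference upward was seen in 6 chains (Lama1, Lama5, Itga8, Itga4, Itgb8 and Lama2), against 4.96% of all measured genes, and 0 were at least 2-fold lower, against 4.01% of all measured genes. The median difference was 0.79 over the 7 measured laminin chains, 0.50 over the 11 measured integrin chains and 0.07 over all measured genes. Longer genes tended to differ more upward: for each 10-fold in genomic span, the length of a gene from first to last base, the fitted difference was larger by 0.41 (log2). The measured chains were long genes, with a median span of 76.6 kb against 24.4 kb over all measured genes. With that trend removed the medians were 0.50 for laminin and 0.25 for integrin chains, against 0.07 over all genes. In that setting 5 chains were at least 2-fold higher, against 3.68% of all genes, and 15 of 18 lay above 0, against 55.85%.

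Before the values of each chain, the upstream sequence of the chains that were at least 2-fold higher is shown, since these are the genes the comparison turns on. RefSeq start site windows (build GRCm38.p6) were found for 13 of the 18 measured chains and for 5 of these 6 (Itga4, Itga8, Itgb8, Lama2 and Lama5). Each line gives the 250 bases before the annotated start, 5′ to 3′, with matches to the searched motifs in capitals.
Itga4, chr2:79255176-79255425, plus strand: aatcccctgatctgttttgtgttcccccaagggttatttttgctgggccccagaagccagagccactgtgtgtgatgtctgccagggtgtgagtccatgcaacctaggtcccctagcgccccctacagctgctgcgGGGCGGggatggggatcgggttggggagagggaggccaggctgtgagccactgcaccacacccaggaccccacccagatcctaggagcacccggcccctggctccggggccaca
Itga8, chr2:12301945-12302194, minus strand: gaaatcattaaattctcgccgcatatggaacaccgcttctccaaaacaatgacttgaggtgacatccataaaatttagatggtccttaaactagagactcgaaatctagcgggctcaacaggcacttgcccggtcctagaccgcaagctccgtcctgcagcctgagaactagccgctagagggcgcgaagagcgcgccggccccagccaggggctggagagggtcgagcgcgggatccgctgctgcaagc
Itgb8, chr12:119238277-119238526, minus strand: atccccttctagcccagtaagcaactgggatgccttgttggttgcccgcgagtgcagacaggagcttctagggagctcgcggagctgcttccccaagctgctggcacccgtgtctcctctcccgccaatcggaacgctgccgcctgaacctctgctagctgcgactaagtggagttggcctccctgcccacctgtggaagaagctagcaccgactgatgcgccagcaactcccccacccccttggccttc
Lama2, chr10:27616943-27617192, minus strand: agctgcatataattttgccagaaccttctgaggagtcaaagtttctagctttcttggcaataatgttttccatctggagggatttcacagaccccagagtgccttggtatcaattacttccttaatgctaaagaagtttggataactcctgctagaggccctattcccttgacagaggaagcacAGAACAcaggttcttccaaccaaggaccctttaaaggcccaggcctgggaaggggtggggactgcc
Lama5, chr2:180225860-180226109, minus strand: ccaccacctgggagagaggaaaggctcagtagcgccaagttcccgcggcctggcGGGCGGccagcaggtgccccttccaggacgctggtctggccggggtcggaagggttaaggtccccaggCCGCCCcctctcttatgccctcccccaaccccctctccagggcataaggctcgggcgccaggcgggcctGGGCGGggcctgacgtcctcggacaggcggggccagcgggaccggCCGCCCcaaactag

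The motifs, searched on both strands, were the AP-1 site TGANTCA, the androgen response half-site AGAACA, the estrogen response half-site GGTCA, the GC box GGGCGG and the TATA box TATAAA. The capitals mark 1 androgen half-site upstream of Lama2, 1 GC box upstream of Itga4 and 4 upstream of Lama5, and the windows of Itga8 and Itgb8 held none of these letters. Of all 32851 windows of the same length, 16.1% held AGAACA and 32.7% held GGGCGG. The 14 windows of measured chains (Itga3 has 2) held AGAACA in 2, GGTCA in 2 and GGGCGG in 8. They held TGANTCA in 0 and TATAAA in 0, against 6.75% of all windows for TGANTCA and 12.4% for TATAAA, and GGTCA was in 35.2% of all windows. The GC content was 72.4% for Lama5, 64.0% for Itga4, 62.4% for Itgb8, 56.4% for Itga8 and 47.2% for Lama2, with a median of 52.4% over all windows. A match of letters is a description of the window and not a binding site.

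Laminin alpha chains carry the globular domains that integrins and dystroglycan bind. Of 5 on the array 4 were measured, and all 4 were higher with T+E2, 3 of them by at least 2-fold. Lama1, whose chain is the main laminin alpha of early embryonic basement membranes, stood at 9.21 with T+E2 and 6.93 in untreated cells. This is 4.84-fold (log2 difference 2.28), and 99.7% of measured genes had a smaller difference. Lama5, whose chain is widespread in epithelial and vascular basement membranes, stood at 7.40 with T+E2 and 5.36, near the floor, in untreated cells (4.10-fold, 2.03). This value rests on a probe set that may match more than 1 transcript by its name. The other measured Lama5 probe set, with a plain name, read 6.19 with T+E2 and was under the floor, at 3.86, in untreated cells. Its difference of 1.19 is therefore a lower bound. Both measured Lama5 probe sets therefore lay at least 2-fold higher. The third read 2.16 with T+E2 and 2.15 in untreated cells, at background. Averaged over its 3 probe sets the gene was under the floor in untreated cells, so its difference of 0.25 is a lower bound. The epithelial marker Cdh1 was higher with T+E2 as well (2.20), while Epcam was at background on both arrays; the part of epithelial cells was not tested.

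Lama2, whose chain is the laminin alpha of muscle basement membranes, stood at 11.47 with T+E2 and 10.39 in untreated cells (2.11-fold, 1.08). It spans 636 kb, the longest of the measured chains, and with the span trend removed its difference was 0.49, under 2-fold. Lama4, whose chain is found around vessels and in mesenchyme, stood at 12.17 with T+E2 and 11.59 in untreated cells (1.49-fold, 0.58). Its other probe set read 7.02 with T+E2 and 5.51 in untreated cells, a difference of 1.51. The mean of these 2 probe sets was 1.04, past 2-fold, and with the span trend removed Lama4 stood at 0.25. Lama3, the alpha chain of the epithelial hemidesmosome laminin, was under the floor on both arrays, at 2.16 with T+E2 and 2.15 in untreated cells.

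By chosen probe set the beta and gamma chains, which are shared between trimers, differed less than Lama1 and Lama5, and none reached 2-fold. Lamb1 stood at 12.82 with T+E2 and 12.15 in untreated cells (1.59-fold, 0.67), on a probe set that may match more than 1 transcript by its name. Its other measured probe sets differed by 0.60 and 1.30. The one at 1.30, past 2-fold, was dimmer, at 7.90 with T+E2 and 6.61 in untreated cells. Dimmer probe sets differed more than the chosen one in some genes, such as Lama4, and less in others, such as Lamc1. Whether the size of a difference follows signal level was not tested. Lamb2, whose chain is typical of synaptic, muscle and kidney basement membranes, stood at 10.84 with T+E2 and 10.24 in untreated cells (1.51-fold, 0.59). It has the shortest span of the measured chains, 10.7 kb, and is the 1 laminin chain whose difference was larger with the span trend removed, at 0.73. Lamc1, the gamma chain of most laminins, stood at 12.68 with T+E2 and 11.89 in untreated cells (1.72-fold, 0.79), with a second probe set at 0.53. All 12 measured laminin probe sets lay above 0, against 56.3% of all 17674 measured probe sets. With the span trend removed all 7 laminin chains still lay above 0, between 0.25 and 1.97, where 55.85% of all genes did. Lamb3 and Lamc3 were under the floor on both arrays, between 2.12 and 2.17.

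**Figure D1:**
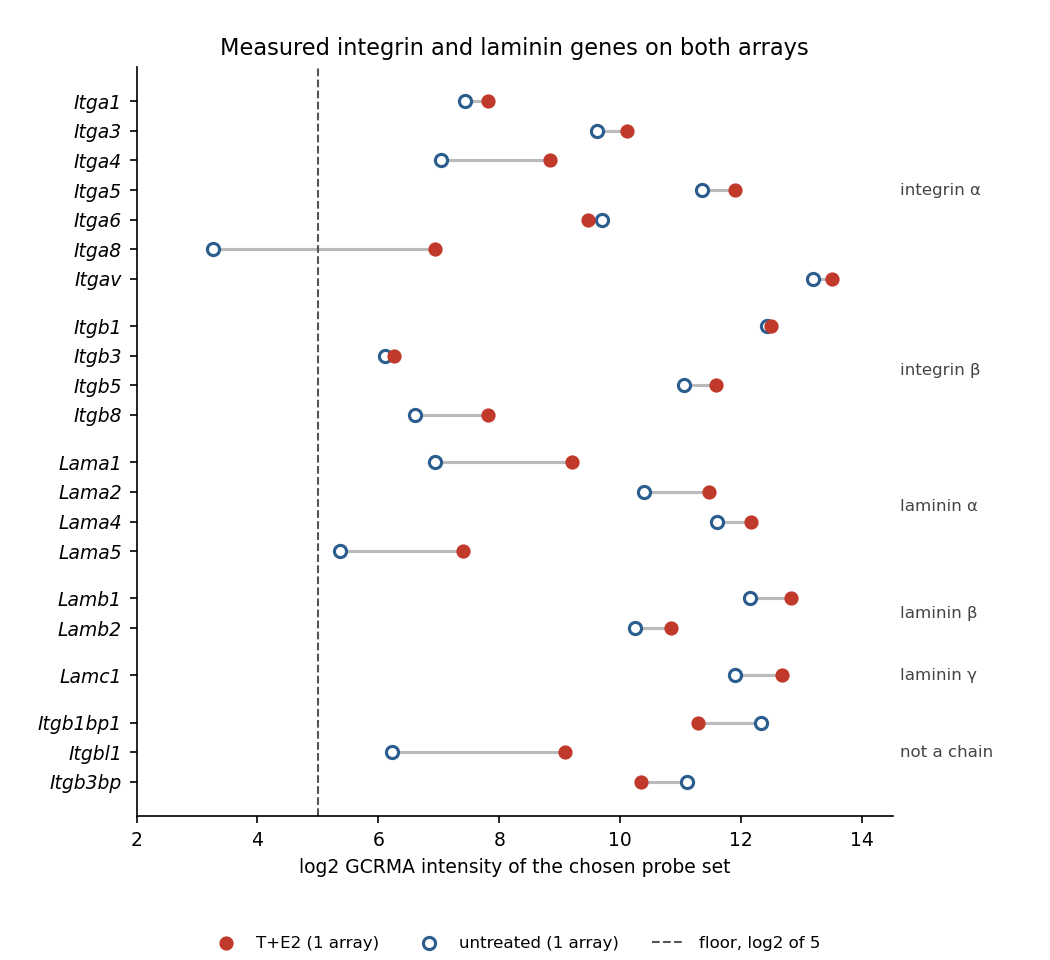
Log2 GCRMA intensity of the 21 measured genes that the symbol rule took (x axis), 1 row a gene, with the T+E2 array as filled and the untreated array as open points and the floor of 5 as a dashed line. Every laminin chain lies to the right with T+E2, Itga8 crosses the floor, and Itga6 is the 1 chain that is lower with T+E2.

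Of 13 laminin trimers of known composition considered, 8 had all 3 chains reaching the floor on each array. They are those that join Lama1, Lama2, Lama4 or Lama5 with Lamb1 or Lamb2 and with Lamc1. None was gained or lost between the arrays at this floor. The trimers with Lama5 rest on a value of 5.36 in untreated cells, where the other measured Lama5 probe set read 3.86. With a floor of 6 they would be complete only with T+E2. The other 5, with Lama3 or Lamc3, had a chain under the floor. Transcripts alone do not show that a trimer was assembled or secreted.

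Among integrin alpha chains, 7 of 16 were measured, and Itga8 and Itga4 passed 2-fold, both upward. Itga8, whose chain pairs with β1, binds nephronectin and other ligands with the RGD motif and is found in mesenchyme and smooth muscle, stood at 6.93 with T+E2 and at 3.26, under the floor, in untreated cells. It was at least 3.81-fold higher (log2 difference at least 1.93). A second Itga8 probe set was at background, at 2.14 with T+E2 and 2.13 in untreated cells. Raising the floor to 6 lowered the bound to 0.93. Itga4, whose chain with β1 binds VCAM-1 and fibronectin, stood at 8.83 with T+E2 and 7.03 in untreated cells (3.50-fold, 1.81). The other 4 Itga4 probe sets were under the floor on both arrays, so both the Itga4 and the Itga8 differences rest on 1 probe set, and averaged over their probe sets neither gene reached the floor.

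Itgb8 was the 1 beta chain at least 2-fold higher. Its product pairs with αv and releases active TGF-β from its latent complex. It stood at 7.81 with T+E2 and 6.60 in untreated cells (2.32-fold, 1.22), on its single probe set, and at 1.003 with the span trend removed. The αv partner Itgav stood at 13.50 with T+E2 and 13.19 in untreated cells (1.24-fold, 0.31).

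Itgb1, the common partner of most alpha chains, was nearly level. Its chosen probe set stood at 12.50 with T+E2 and 12.43 in untreated cells (1.05-fold, 0.06), and its 5 measured probe sets differed by 0.04 to 0.67. With centring on the median difference it stood at -0.01 and with the span trend removed at -0.07, so it has no stable direction. Itga8 and Itga4 thus differed by 2-fold or more beside a β1 partner that differed by 1.05-fold.

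The other receptors for matrix with the RGD motif differed by less than 2-fold. Itga5, whose chain with β1 is the classical fibronectin receptor, stood at 11.89 with T+E2 and 11.35 in untreated cells (1.45-fold, 0.54). This rests on a probe set that may match more than 1 transcript by its name, and its other 3 probe sets were under the floor. Itgb5, a partner of αv in vitronectin binding, stood at 11.59 with T+E2 and 11.05 in untreated cells (1.45-fold, 0.54). The 2 Itgb5 probe sets whose names mark possible cross-hybridisation gave the larger differences, 0.54 and 0.50, and the other 2 gave 0.18 and 0.16. Itgb3, the other vitronectin receptor beta chain, stood at 6.26 with T+E2 and 6.11 in untreated cells (1.11-fold, 0.15), and at -0.03 with the span trend removed.

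Receptors for laminin and collagen also differed by less than 2-fold. Itga6, whose chain binds laminins with β1 or β4, was the only chain below 0 among the 18, at 9.47 with T+E2 and 9.70 in untreated cells (log2 difference -0.23). It was negative under every alternative run that gave a value, from -0.43 to -0.23. Most of these runs could not have turned its sign. Itga6 rests on 1 measured probe set, and a changed floor cannot reverse a sign. Itga3, whose chain with β1 also binds laminins, stood at 10.11 with T+E2 and 9.61 in untreated cells (1.41-fold, 0.50), with a second measured probe set at 0.13. The collagen receptor gene Itga1 stood at 7.81 with T+E2 and 7.44 in untreated cells (1.30-fold, 0.38). With the span trend removed Itga1 stood at 0.05 and Itgav at 0.08.

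**Figure D2:**
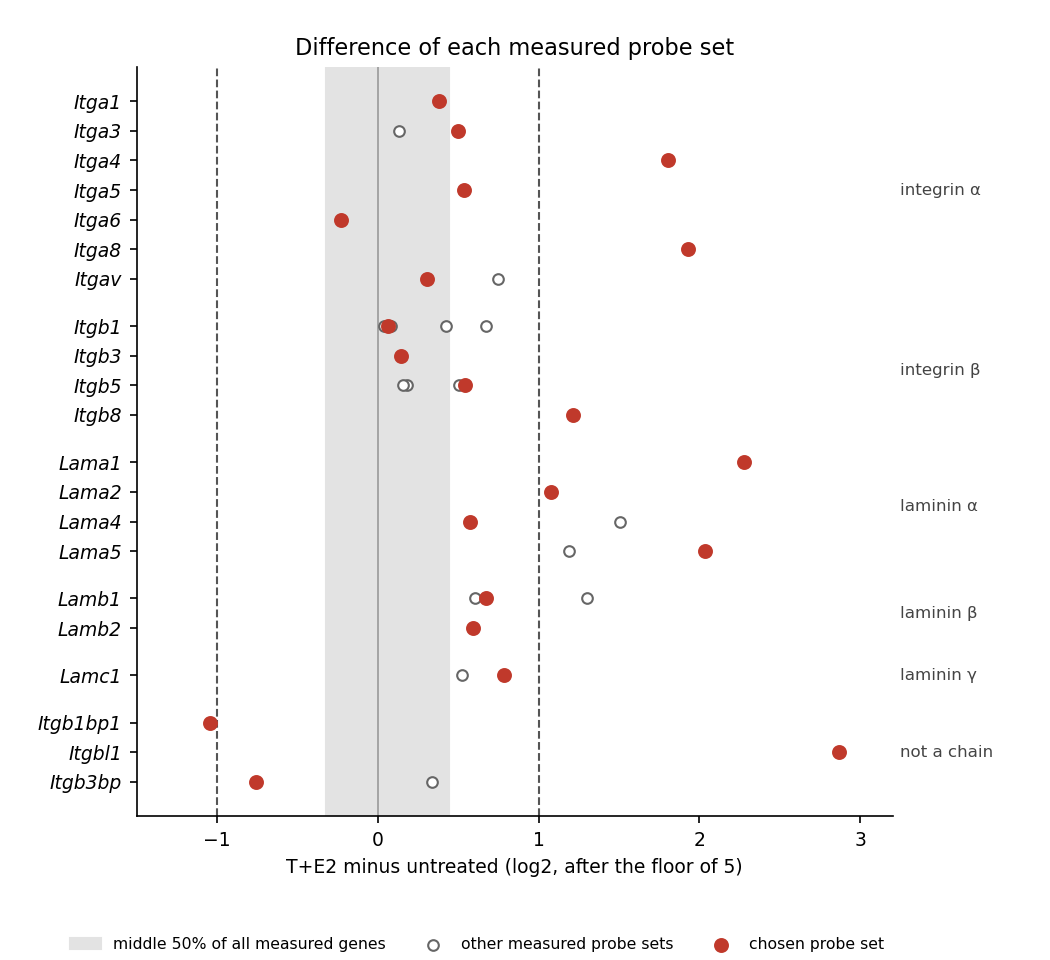
Log2 difference, T+E2 minus untreated after the floor of 5 (x axis), of every measured probe set of the same 21 genes, with the chosen probe set filled and the others open. The grey band spans the middle 50% of all measured genes (-0.32 to 0.45) and dashed lines mark 2-fold. The chosen probe sets of 6 chains lie past the right line, as do single other probe sets of Lama4, Lama5 and Lamb1. Among probe sets of chains only that of Itga6 is below 0.

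The remaining 13 integrin chains were under the floor on both arrays, between 2.09 and 3.93, and no difference is given for them. They comprised the chains typical of leukocytes (Itgal, Itgam, Itgax, Itgae, Itgb2 and Itgb7), the platelet chain Itga2b, and the epithelial chains Itgb4 and Itgb6. Also under the floor were Itga2, Itga7, Itga9 and Itga10. The closest to the floor was Itga2b, at 3.58 with T+E2 and 3.93 in untreated cells, while the measured chain nearest to it was Lama5, at 5.36 in untreated cells.

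Of 24 known integrin pairs, 10 had both genes at or above the floor with T+E2 and 9 did in untreated cells. On both arrays these were α1β1, α3β1, α4β1, α5β1, α6β1, αvβ1, αvβ3, αvβ5 and αvβ8. The pair α8β1 was complete only with T+E2, since Itga8 was under the floor in untreated cells. The pairs α11β1 and αDβ2 are not analysed here, and the other 12 had at least 1 gene under the floor on both arrays. Pairing of the proteins was not measured.

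**Figure D3:**
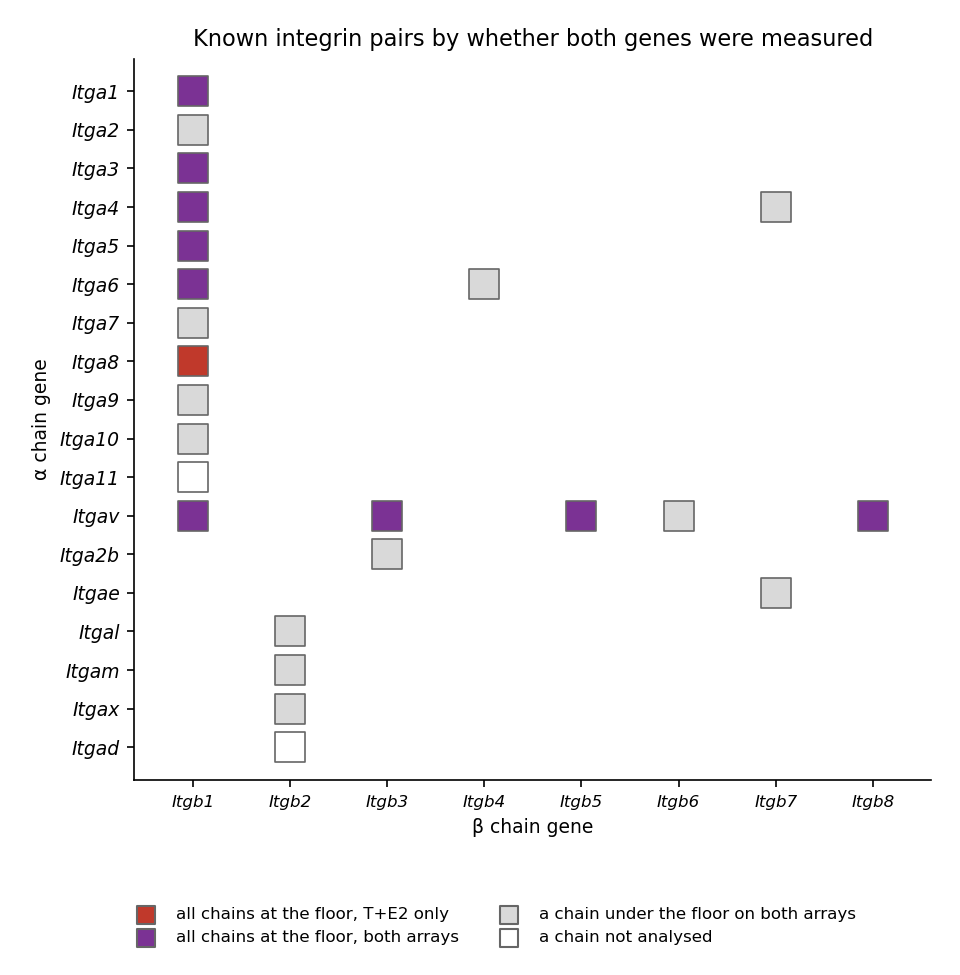
Known integrin pairs, alpha chain genes down the y axis and beta chain genes along the x axis, coloured by whether both genes reached the floor. The 9 purple pairs are complete on both arrays, all with Itgb1 or Itgav, and Itga8 with Itgb1 is complete only with T+E2.

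Of the 5 genes with an integrin symbol that are not chains, 3 were measured. Itgbl1, which encodes a secreted protein with repeats like those of integrin beta chains, stood at 9.09 with T+E2 and 6.22 in untreated cells (7.31-fold, log2 difference 2.87). Itgb1bp1, which encodes ICAP-1, a protein that binds the β1 tail and restrains its activation, stood at 11.28 with T+E2 and 12.32 in untreated cells. This is 2.06-fold lower with T+E2 (-1.04), on its single probe set, and -1.01 with the span trend removed, just past 2-fold. That probe set has no plain name, so plain _at probe sets gave no value. The Itgb1 transcript was nearly level, and activity of the β1 protein was not measured. Itgb3bp, which encodes a centromere protein, stood at 10.34 with T+E2 and 11.10 in untreated cells (-0.76). Its 2 measured probe sets lay on opposite sides, and the one with a plain name gave 0.34. Itgb1bp2 and Itgb2l were under the floor, between 2.07 and 2.18.

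Partner genes were taken from 5 lists. In the cytoplasm integrins are joined to actin by adaptor proteins such as talin, kindlin and tensin. Of 30 measured adhesion complex genes 2 were at least 2-fold higher and 0 lower (4.96% and 4.01% of all measured genes), 26 lay above 0 (55.8% of all measured genes), and the median was 0.45. The tensin gene Tns1 stood at 12.03 with T+E2 and 10.47 in untreated cells (2.97-fold, 1.57). The talin gene Tln2 stood at 9.84 with T+E2 and 8.73 in untreated cells (2.16-fold, 1.11), and at 0.60 with the span trend removed. With that trend removed the median of the list was 0.26.

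Basement membranes also hold nidogens, perlecan and collagen IV, which link laminin to the rest of the sheet. Of 15 measured genes of this list other than laminins, 2 were at least 2-fold higher, 0 lower and 14 above 0 (4.96%, 4.01% and 55.8% of all measured genes), with a median of 0.49 and, with the span trend removed, 0.28. Hspg2, the perlecan gene, stood at 10.66 with T+E2 and 9.54 in untreated cells (2.17-fold, 1.12), and at 0.85 with the span trend removed. Tinagl1, which encodes a matrix protein of basement membranes, stood at 7.96 with T+E2 and 6.89 in untreated cells (2.10-fold, 1.07), and at 1.22 with the trend removed. The median of the 7 laminin chains, 0.79, was larger than that of this list, and whether the sets differ was not tested.

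Among 16 measured ligands of integrins other than laminins, 2 were at least 2-fold higher, 0 lower and 15 above 0, beside the same shares of all measured genes (4.96%, 4.01% and 55.8%), with a median of 0.54. Cdh1, which encodes E-cadherin, the ligand of αEβ7, stood at 7.57 with T+E2 and 5.37 in untreated cells (4.59-fold, 2.20), while both genes of αEβ7 were under the floor. Ccn1, whose product binds αvβ3 and αvβ5, stood at 13.53 with T+E2 and 12.13 in untreated cells (2.65-fold, 1.41). The ligands of the higher alpha chains, named for that pairing after their values were seen, all differed by less than 2-fold. The α8β1 ligand Npnt stood at 7.15 with T+E2 and 6.30 in untreated cells (0.85), the α4β1 ligand Vcam1 at 13.12 and 13.15 (-0.03), and Fn1 at 14.70 and 14.22 (0.49).

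None of the 4 measured laminin receptors outside the integrins reached 2-fold, against 4.96% of all measured genes higher and 4.01% lower. Their median was 0.00 (2 above and 2 below 0). Dag1, the dystroglycan gene, stood at 12.74 with T+E2 and 11.95 in untreated cells (1.73-fold, 0.79), and Rpsa, the gene of the ribosomal protein once described as a laminin receptor, at 15.04 and 15.19 (-0.15). Tetraspanins and CD47 associate with integrins in the membrane. None of their 5 measured genes reached 2-fold, beside the same shares of all measured genes, with a median of 0.00. At such shares, lists this small would often hold none. Cd9 stood at 11.85 with T+E2 and 12.77 in untreated cells (-0.92), and Cd47 at 12.80 and 12.36 (0.45).

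**Figure D4:**
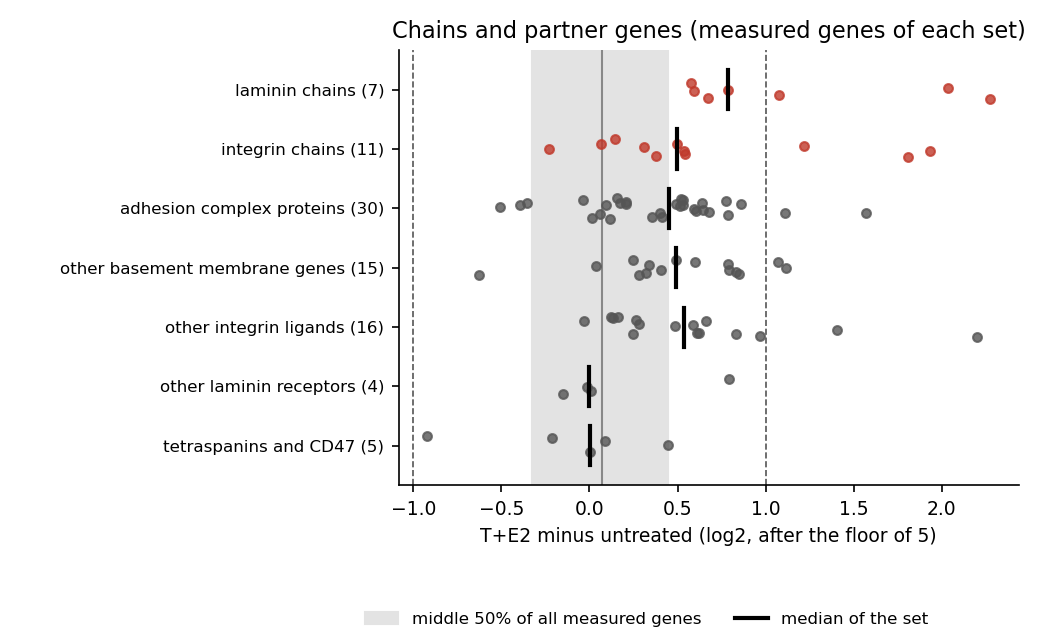
Log2 difference, T+E2 minus untreated (x axis), of each measured gene of the chains (red) and of the 5 partner lists (grey), with the median of each set as a black bar and the number of genes in brackets. The grey band is the middle 50% of all measured genes; the medians are 0.79 for laminin chains, 0.50 for integrin chains and 0.00 for the lists of other laminin receptors and of tetraspanins with CD47.

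Marker genes were read beside these results. Of 12 mesenchyme markers 8 were measured, among them Vim, Pdgfra and Col1a1. All 8 lay above 0 with a median of 0.19, against 55.8% and 0.07 over all measured genes. Thy1, Fgf10, Hoxd13 and Hoxa13 were under the floor on both arrays, between 2.13 and 2.37, so these markers of urogenital stroma did not reach it. Epithelium also makes laminin alpha chains such as Lama1 and Lama5, and 2 of 15 epithelial markers were measured. These were Cdh1 and Trp63, with Trp63 at 8.46 with T+E2 and 7.99 in untreated cells, and the summed intensity of the 15 was 601 with T+E2 and 355 in untreated cells. Epcam, Shh and all 6 keratin genes of the list were at background on both arrays, between 2.10 and 2.40.

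Of 9 leukocyte markers 2 were measured, Lyz2 at 8.53 with T+E2 and 10.06 in untreated cells, and Cd14 at 6.30 and 6.13. Ptprc read 2.13 with T+E2 and 2.12 in untreated cells. The summed intensity of the 9 was 484 with T+E2 and 1171 in untreated cells, most of it from Lyz2 alone. Of 8 endothelial markers only Tek was measured, at 10.02 with T+E2 and 9.82 in untreated cells, with Pecam1 and Cdh5 at background. The sum was 1071 with T+E2 and 935 in untreated cells, most of it from Tek. Of 3 megakaryocyte markers on the array Pf4 was measured, at 7.12 with T+E2 and 8.37 in untreated cells. Of 5 smooth muscle markers, in a tissue type where Itga8 is also found, 2 were measured. Acta2 stood at 14.75 with T+E2 and 14.62 in untreated cells, and Tagln at 10.45 and 11.88. The part of these cell types in the chain differences was not tested.

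**Figure D5:**
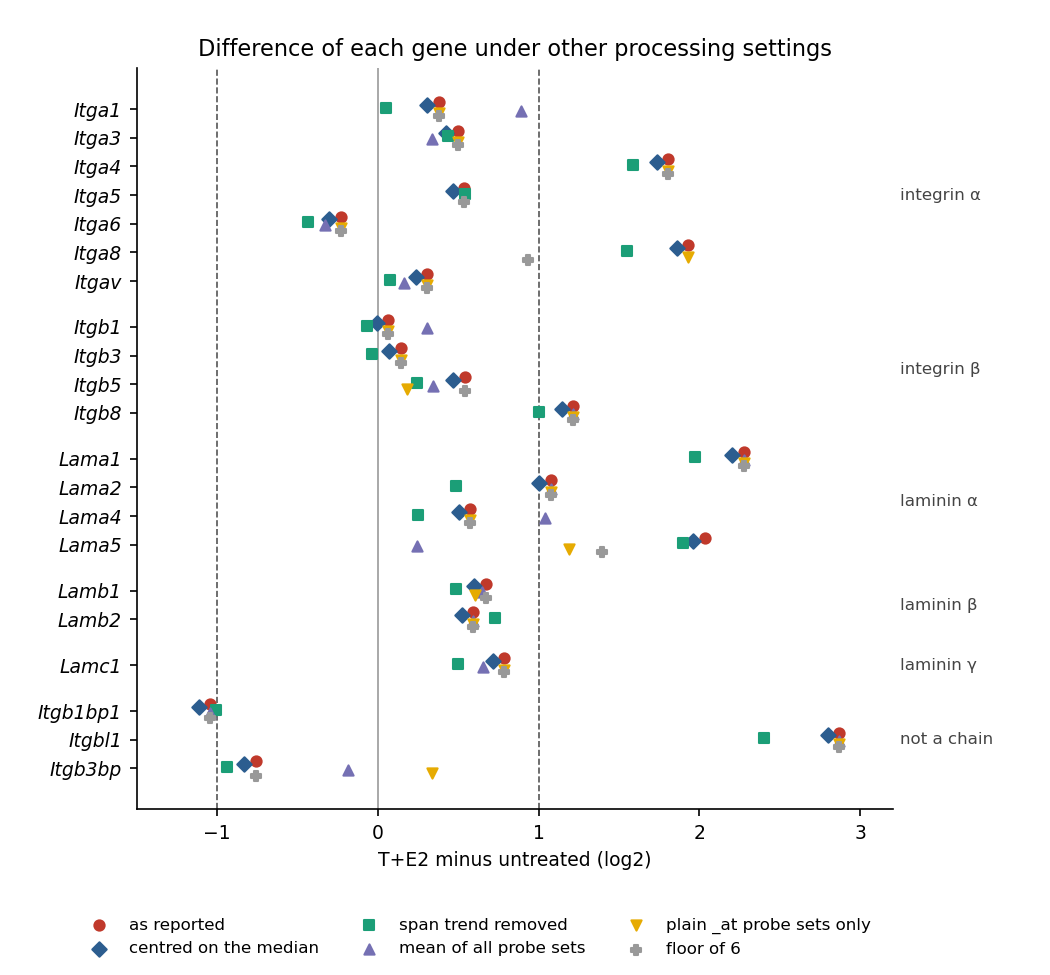
Log2 difference, T+E2 minus untreated (x axis), of the 21 measured genes as reported and under 5 other settings, each with its own symbol, with dashed lines at 2-fold. Lama1, Itga4, Itgb8 and Itgbl1 stay past 2-fold upward, and Itgb1bp1 downward, under every setting plotted that gave a value. The probe set settings could not move these genes. Itga4 gave no value for the mean, and the others have 1 probe set each. Lama2 falls to 0.49 with the span trend removed. Lama5 lies at 0.25 with the mean of all probe sets, a lower bound because its untreated mean was under the floor.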

How the data were processed

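Total RNA of 1 T+E2 and 1 untreated culture was labelled with NuGEN kits and read on Affymetrix arrays with 45101 probe sets, per the labels' protocols. The authors deposited intensity values on a linear scale made with GCRMA, per the submitters' processing notes, with no version stated there. GCRMA subtracts a background modelled from probe sequence, normalizes between arrays by quantiles and combines the probes of a set, which leaves many unexpressed genes at a common low value: 42.1% of probe sets reached the floor with T+E2 and 42.9% in untreated cells.

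Here log2 was taken with no further scaling (Python 3.11.15, pandas 2.3.3). The platform annotation named 1 gene for 34945 probe sets and several genes for 932, which were left out. Symbols were updated through RefSeq identifiers (GRCm38.p6), matching 18145 of 18193 genes. The difference after a floor of 5 is a value with no test, and 2-fold (1 or -1) is the size counted. The 18 hybridization spike probe sets differed by -0.25 to 0.09. On simulated arrays with noise of SD 0.12 and 10159 measured genes, the count found 50 of 50 genes at a log2 change of 2 and 50 of 50 at 1.5. It found 50 of 50 at -1.5, 50 of 50 at -2 and 0 of 9959 unchanged genes. The changes were placed only in genes well above the floor on both arrays, so genes such as Itga8 and Lama5 lay outside this setting. The noise held no variation between cultures, so the run gives no rate of false calls for the real arrays.

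The members, the partner and marker lists and the settings were chosen with earlier results of these data known. Every measured member is named, with up to 4 partner genes a list that were at least 2-fold different, or else the 2 largest. Alternatives were floors of 4 and 6 or none, the mean of all probe sets, plain _at probe sets only, centring on the median, and a linear trend on log10 span removed with the median kept.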

Additional observations from a re-analysis of the deposited data

How the results depend on the processing

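No alternative turned the sign of a chain that was at least 2-fold different, but most could not have done so. A changed floor cannot reverse a sign, centring shifts each gene by 0.07, and Lama1, Lama2 and Itgb8 have 1 probe set each. Itga4 and Itga8 gave no value when probe sets were averaged. Under every setting run 0 chains were at least 2-fold lower, against 2.8% to 5.1% of all genes by setting. The count of chains at least 2-fold higher, 6 as reported, was between 4 and 6, against 3.35% to 5.80% of all genes by setting. Without a floor all 34 chains on the array entered, with the 16 near background on both arrays, and the median of the integrin chains was 0.017. With the span trend removed the medians were 0.25 (integrin) and 0.50 (laminin). The number of measured chains was 14 when probe sets were averaged and 17 with plain _at probe sets only, where Itga5 dropped out. A move counted as large when it passed 0.22, the typical SD among one gene's probe sets. With the span trend removed 9 of 21 single genes moved by more than that, 5 of 17 when probe sets were averaged, 3 of 19 with plain probe sets and 0 of 21 with centring. Itgb3bp, under 2-fold as reported, stood at 0.34 with plain probe sets, the opposite side. No paired analysis was possible because each group has 1 array, and no array could be left out. Precision is limited by the number of arrays, and Lama5, Itgb3 and Itga8 lie near the floor.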
